A study of Rattus norvegicus with 21 samples.

Results

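Neomycin and vancomycin were compared directly in microglia sorted from rat spinal cord. The libraries were chosen by their titles: 4 from animals given neomycin (NEO) and 4 from animals given vancomycin (VANCO), numbered 1, 2, 3 and 5 in both groups. These are 8 of the 21 libraries of the series. All groups consisted of wild-type LEW/Crl rats, 6 to 8 weeks old, dosed through the trachea over 7 days. The 4 microglia libraries from animals given PBS, the buffer control, entered the same model and are given after the antibiotics, and 9 libraries of total cord (3 each of NEO, VANCO and PBS) served for comparison. Microglia were taken as CD45low CD11b+ cells after myelin removal, and the labels do not say whether a library came from 1 animal or several. The p-values therefore measure the spread between these samples, which may be partly technical.

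Microglia are the resident macrophages of the central nervous system, and their transcription responds to microbial products and to cytokines such as interferons, also when these arise outside the nervous system. Neomycin is an aminoglycoside, which acts on the bacterial ribosome and is used mainly against Gram-negative bacteria. Vancomycin is a glycopeptide, which blocks cell wall synthesis of Gram-positive bacteria. The series asked how antibiotics in the airway affect the central nervous system, and the direct comparison asks whether microglia differ by which antibiotic was given.

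The files hold counts per Ensembl gene ID with no gene names, and 0 of their 32883 IDs matched the gene table used here. Genes are therefore described by their values, with 4 IDs printed, and the labelled cell type was not checked against marker genes. Total counts ranged from 10847891 to 21353309 in NEO microglia and from 14706297 to 20936827 in VANCO microglia. NEO replicate 2 stood apart. Genes at least 64-fold higher in total cord than in microglia of PBS animals (cord-enriched genes, 1646 in all, by an unpaired edgeR test) made up 2.57% of its counts (95% Wilson interval, 2.56 to 2.58%, counting error only). Their share was 0.0367, 0.0986 and 0.0966% in NEO replicates 1, 3 and 5, and 0.0388, 0.303, 0.0647 and 0.0971% in VANCO replicates 1, 2, 3 and 5. The counts of called genes in microglia and in the test between tissues are given with and without NEO replicate 2. The contrasts with PBS, the intervals of the fold changes and the raised genes read in cord are given only with it included.

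A small set of genes differed between microglia of NEO and VANCO animals, most of them higher in NEO. With libraries of equal number paired, edgeR's quasi-likelihood test called 21 of 12570 genes (0.167%) at a Benjamini-Hochberg adjusted p under 0.05, 20 higher (0.159%) and 1 lower (0.00796%) in NEO. The 20 raised genes had log2 fold changes from 0.62 to 1.95 (median 1.10), and 13 of them were at least 2-fold higher. Across all 12570 genes the median log2 fold change was -0.01, and 48.0% were above 0. At an unadjusted p under 0.05 there was no such excess of higher genes, with 407 higher and 403 lower in NEO. By fold size there was: 344 of the 12570 genes were at least 2-fold higher and 7 at least 2-fold lower in NEO. Of the 344, 301 were at least 8-fold higher in total cord than in microglia of PBS animals. The called set was less one-sided in other tests, with 25 of 84 called genes lower in paired DESeq2 and 21 of 75 without NEO replicate 2. The calls rest on the pairing and on the PBS libraries in the model. Without the pairing edgeR called 0 genes (269 at an unadjusted p under 0.05, lowest adjusted p 0.347), and with only the 8 NEO and VANCO libraries, paired, it called 0 (431 at an unadjusted p under 0.05, lowest adjusted p 0.0607). Counts at an unadjusted p, here and below, are a description. With no difference at all, a share of about 0.05 of the genes tested would pass on average.

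**Figure D1:**
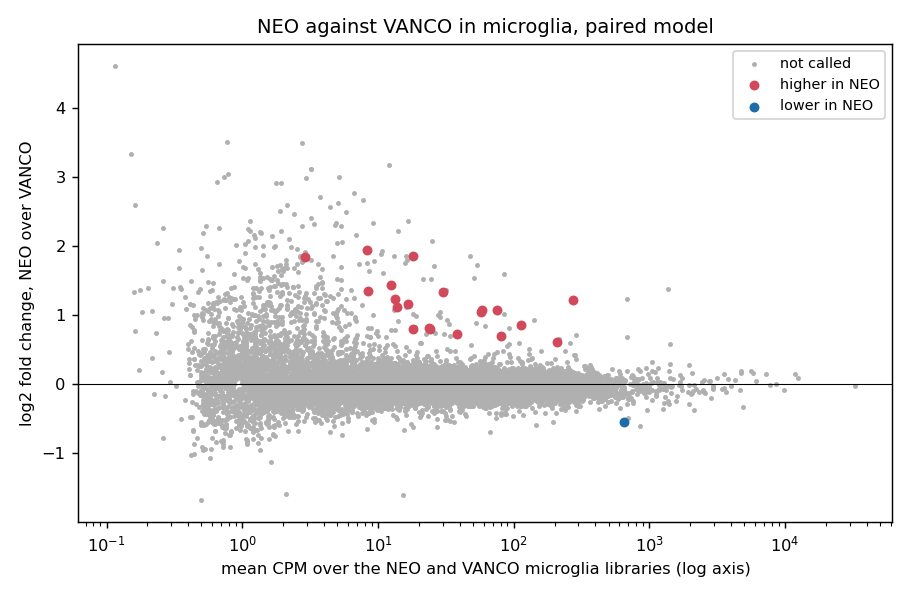
Each point is 1 of the 12570 genes tested in microglia, with the mean CPM (read counts scaled to a common library size) of the 8 NEO and VANCO libraries on a log axis and the log2 fold change, NEO over VANCO, from the paired model. The 20 raised genes (red) lie between 0.62 and 1.95 at means from 2.91 to 275 CPM, and the 1 lowered gene (blue) lies at -0.55.

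Each raised gene was higher in NEO in all 4 pairs, whereas 6.08% of all genes tested were higher and 7.72% lower in every pair. In 13 of the 20 the lowest NEO library lay above the highest VANCO library, which held for 0.811% of all genes tested, with 0.796% the other way round. In the other 7 the groups overlapped, while the NEO mean was still above the VANCO mean in each. The median log2 difference of the 20 genes was 0.88, 1.00, 1.18 and 1.28 in the pairs numbered 1, 2, 3 and 5. These values chose the genes and are a description. The median SE of their log2 fold changes was 0.15 with the pairing and 0.29 without it, while the fold changes themselves changed little (0.59 to 1.85 without it).

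**Figure D2:**
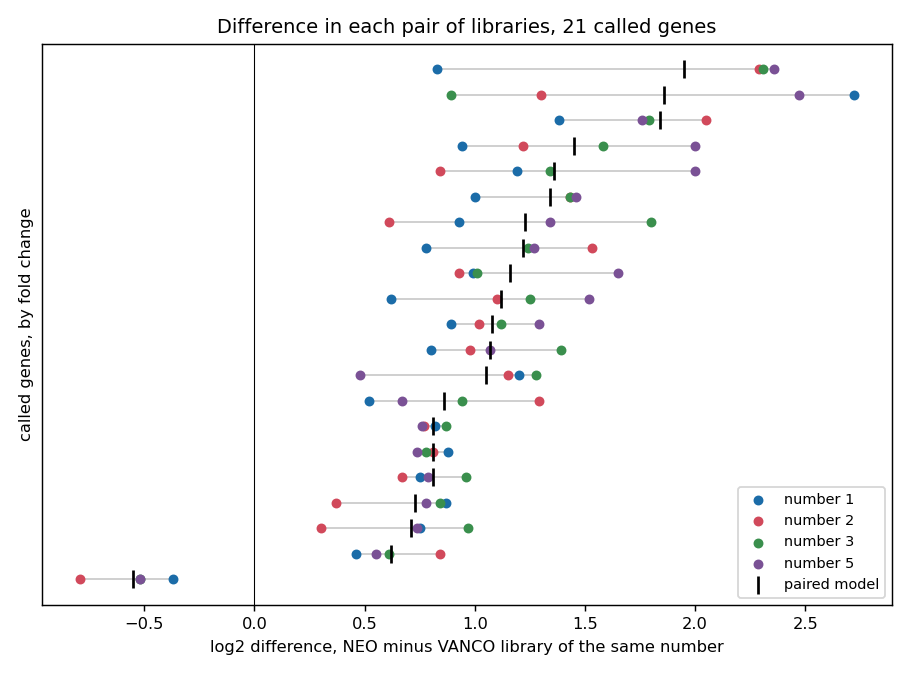
Each row is 1 of the 21 called genes, ordered by fold change. Coloured points give the log2 difference between the NEO and the VANCO library of the same number, and the black mark gives the log2 fold change of the paired model. All 80 points of the 20 raised genes lie right of 0, and the 4 points of the lowered gene lie left of it.

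ENSRNOG00000001963 had the lowest p of the comparison. It had 44.2, 52.4, 34.7 and 39.6 CPM in NEO replicates 1, 2, 3 and 5, against 22.0, 19.4, 12.8 and 14.3 CPM in VANCO and 23.2, 19.4, 13.2 and 14.5 CPM in PBS. The NEO libraries lay above every VANCO library, and VANCO and PBS libraries covered the same range. NEO exceeded VANCO by 1.34 on the log2 scale (SE 0.10, edgeR adjusted p 0.000852, higher in 4 of 4 pairs). This call held without any single library (log2 fold change 1.29 to 1.44, adjusted p 1.63e-05 to 0.0183). It was lost without the pairing (adjusted p 0.347), with only the 8 NEO and VANCO libraries (0.0607) and without all libraries of number 3 (0.0861).

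ENSRNOG00000019536 had the lowest p after it. In NEO replicates 1, 2, 3 and 5 it had 28.9, 24.4, 39.3 and 28.6 CPM, against 16.3, 14.2, 21.4 and 16.8 CPM in VANCO and 15.3, 10.3, 17.4 and 13.5 CPM in PBS. Number 3 was highest and number 2 lowest in every treatment, so the groups were spread widely while the log2 differences within pairs stayed between 0.76 and 0.87. NEO exceeded VANCO by 0.81 on the log2 scale (SE 0.08, edgeR adjusted p 0.00636). Its adjusted p was 0.0598 without NEO replicate 3, 0.0593 without VANCO replicate 1, and 0.0732 without VANCO replicate 3. It was 0.0817, 0.283 and 0.0900 without all libraries of number 1, 3 or 5, 0.0952 with only the NEO and VANCO libraries and 0.749 without the pairing.

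The most abundant raised gene had 309, 379, 551 and 295 CPM in NEO replicates 1, 2, 3 and 5, against 180, 131, 234 and 123 CPM in VANCO (log2 fold change 1.22, SE 0.17, edgeR adjusted p 0.0245). All NEO values lay above all VANCO values, and number 3 was the highest in both groups. The least abundant had 4.85, 4.34, 4.88 and 4.03 CPM in NEO against 1.79, 0.957, 1.33 and 1.11 CPM in VANCO (log2 fold change 1.84, SE 0.28, adjusted p 0.0389), with 14 counts in the lowest of these libraries. The raised gene with the largest fold change had 18.1, 10.8, 13.4 and 7.88 CPM in NEO and 10.1, 2.12, 2.60 and 1.43 CPM in VANCO (log2 fold change 1.95, SE 0.26, adjusted p 0.0245). Its VANCO replicate 1 overlapped the NEO group, and its log2 difference was 0.83 in pair 1 and 2.29 to 2.36 in the other pairs. In PBS animals its level in total cord was more than 8-fold that in microglia (log2 difference, microglia minus cord, -3.1). The raised genes lay at ordinary levels: 3 had a mean under 10 CPM, 14 lay between 10 and 100 CPM and 3 above 100 CPM, and their median of 24.0 CPM was close to the 24.3 CPM of all genes tested.

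ENSRNOG00000013963 was the lowered gene. It had 487, 408, 586 and 620 CPM in NEO replicates 1, 2, 3 and 5, against 630, 705, 841 and 887 CPM in VANCO and 773, 762, 1036 and 1052 CPM in PBS. Each NEO library lay below its VANCO partner, and each VANCO library below its PBS partner. On the log2 scale NEO minus VANCO was -0.55 (SE 0.08, edgeR adjusted p 0.0285), and the groups did not overlap. This call was kept without NEO replicate 1 or 2 and lost without any other single library, PBS libraries included (adjusted p up to 0.191). ENSRNOG00000017869 came next by p, just outside the threshold, with 620, 465, 623 and 596 CPM in NEO and 841, 783, 783 and 822 CPM in VANCO. There NEO minus VANCO was -0.49 on the log2 scale (SE 0.08, edgeR adjusted p 0.0551), and the groups did not overlap. Without NEO replicate 2 it was -0.42 with an adjusted p of 0.00142. Without any other single library the adjusted p lay between 0.0990 and 0.265, and without the pairing it was 0.629.

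**Figure D3:**
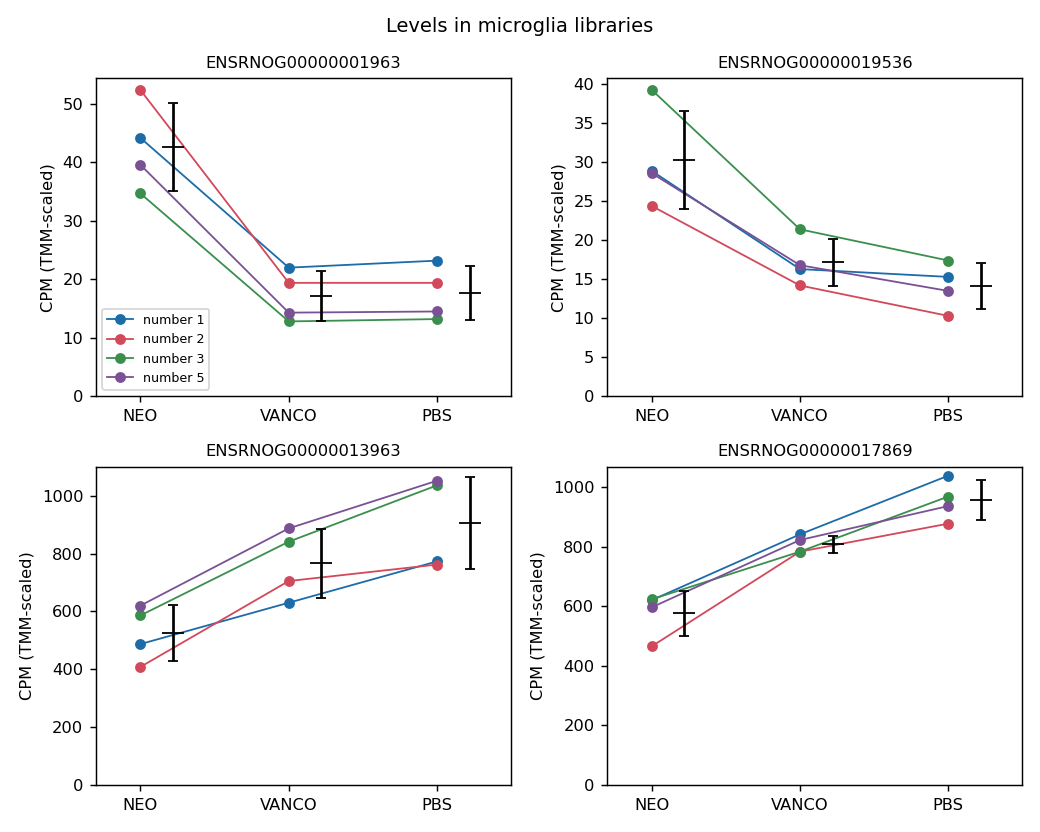
CPM (read counts scaled to a common library size by TMM) of the 4 printed genes in microglia libraries, by treatment. Lines join libraries of the same number, and black marks give the mean ± SD (n = 4). The 2 upper genes are higher in NEO than in VANCO in every pair, and the 2 lower genes are lower in every pair.

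Where PBS lay was read from the same model. The 20 raised genes had a median log2 fold change of 1.12 for NEO over PBS (range 0.59 to 2.99) and of 0.05 for VANCO over PBS (range -0.56 to 1.14). The paired test called 94 of 12570 genes between NEO and PBS (0.748%), and 0 between VANCO and PBS (365 at an unadjusted p under 0.05, lowest edgeR adjusted p 0.105). These contrasts share the PBS libraries with each other and the NEO or VANCO libraries with the comparison that chose the genes, so the values are a description. The lowered gene had log2 fold changes of -0.79 (SE 0.08) for NEO over PBS and -0.24 (SE 0.08, edgeR adjusted p 1) for VANCO over PBS.

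Leaving out NEO replicate 2 widened the set. The paired edgeR test then called 75 of 12804 genes (0.586%), 54 higher and 21 lower in NEO, and 17 of the 20 raised genes and the lowered gene were among them. Leaving out any of several other libraries shrank it. The count was 3 and 11 without NEO replicates 3 and 5, 1, 6, 1 and 4 without VANCO replicates 1, 2, 3 and 5, and 12, 9 and 9 without PBS replicates 1, 3 and 5. Other tools paired in the same way called more, 84 in DESeq2 (59 higher, 25 lower) and 30 in limma-voom (26 higher, 4 lower), and both included all 21 genes.

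Without all 3 microglia libraries of number 2, edgeR called 59 of 12633 genes (0.467%), 44 higher and 15 lower in NEO. The pair numbered 2 had no part in that test and gives a second look at these genes. Its libraries were unlike in cord-enriched counts, 2.57% in NEO replicate 2 and 0.303% in VANCO replicate 2. The part of this imbalance in the directions seen was not tested. Of the 44 genes, 39 were higher in NEO in pair 2, with a median log2 difference of 0.56. Of the 15, 14 were lower, with a median of -0.64. Of all 12570 genes, 49.8% were higher and 50.2% lower in NEO in that pair, with a median of 0.00. The same count without number 1 was 4 genes, all higher, and all 4 were higher in NEO in the pair left out. Of all genes, 49.8% were higher in NEO in that pair. Without number 5 it was 3 genes, 2 higher and 1 lower, and all 3 had the same direction in the pair left out. Of all genes, 47.1% were higher and 52.9% lower in NEO in that pair. So few genes say little beside these shares. Without number 3 edgeR called 0 genes (473 at an unadjusted p under 0.05).

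Pair 2 differed from the others across the genome. The log2 difference of all genes had an SD of 0.81 in pair 2, against 0.38, 0.33 and 0.37 in pairs 1, 3 and 5. Cord-enriched genes had a median log2 difference of 2.44 in pair 2 (345 such genes tested), and of -0.11, 0.53 and -0.07 in pairs 1, 3 and 5. Of the 344 genes at least 2-fold higher in NEO by the paired model, 208 were cord-enriched, and 13 were called. None of the 345 cord-enriched genes was called. Among the 20 raised genes 1, the one with the largest fold change, had a level in cord 8-fold or more above that in microglia of PBS animals. By the tissue comparison in PBS animals, 12 of the 20 were higher in microglia, 4 were higher in cord and 4 were not called either way, against 55.1, 26.7 and 18.2% of all genes tested. When every library's share of cord-enriched counts was added to the paired model, it called 64 genes (46 higher, 18 lower), 18 of the 21 among them. Correlations of the log2 differences between pairs, across all 12570 genes, which are not independent replicates, ran from -0.10 to 0.27.

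For most genes a large difference between the antibiotics can be bounded. The 95% interval of the log2 fold change lay within a 2-fold difference in either direction for 10885 of 12570 genes (86.6%). That share was 98.9% of genes with a mean above 100 CPM, 98.5% between 10 and 100 CPM and 62.3% below 10 CPM, where the median half-width of the interval was 0.21, 0.23 and 0.61. Differences under 2-fold were not bounded in this way, and without the pairing the share was 80.2%.

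The same contrast was read in total cord, from libraries that had no part in the microglia test. Cord libraries were paired by number too. Deviations from group means had r from 0.43 to 0.59 between cord NEO and VANCO libraries of the same number (3 pairs), and from -0.49 to 0.01 between the others (6 pairs). The labels do not say whether both tissues came from the same animals, and in whole tissue fewer cells of a type and less RNA per cell cannot be told apart. All 20 raised genes were tested in cord, and 19 had a log2 fold change above 0, with a median of 0.74, against 49.6% and a median of 0.00 for the 11862 genes tested in both tissues. The paired edgeR test in cord called 64 of 14677 genes (0.436%), 57 higher (0.388%) and 7 lower (0.0477%) in NEO. Of the 57 higher ones, 15 were among the 20, which is 75.0% of the microglia list and 26.3% of the cord list. Those 15 had log2 fold changes of 0.56 to 1.40 in cord and 0.62 to 1.84 in microglia. Of the 57, 53 were tested in microglia, where 47 had a log2 fold change above 0 and 38 were not called. Over the 11862 genes tested in both tissues, the log2 fold changes of the 2 tissues correlated weakly (Pearson r 0.11, Spearman rho 0.13). Without the pairing edgeR called 0 genes in cord (331 had an unadjusted p under 0.05). Paired DESeq2 called 41 genes, 11 of the 20 among them, and paired limma-voom 55, with 13 of the 20. The count of 15 was 9 without cord NEO replicate 2 or 3 and 8 without cord VANCO replicate 2. The count of all genes called in cord, 64, was 36 without cord VANCO replicate 1.

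The remaining 5 raised genes had log2 fold changes of 0.81 to 1.95 in microglia and of 0.00 to 0.16 in cord. ENSRNOG00000019536 was among them, with 8.27, 7.04 and 8.56 CPM in cord NEO replicates 1, 2 and 3, against 6.71, 8.45 and 7.19 CPM in VANCO and 6.49, 7.95 and 6.77 CPM in PBS. Its cord groups overlapped (log2 fold change 0.10, SE 0.12, edgeR adjusted p 0.870). ENSRNOG00000001963 was higher in cord NEO, with 32.4, 33.4 and 36.9 CPM, against 20.7, 21.6 and 20.1 CPM in VANCO and 22.4, 20.8 and 24.8 CPM in PBS (log2 fold change, NEO over VANCO, 0.72, SE 0.07). The lowered gene had a log2 fold change of -0.12 in cord (SE 0.06, edgeR adjusted p 0.524).

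**Figure D4:**
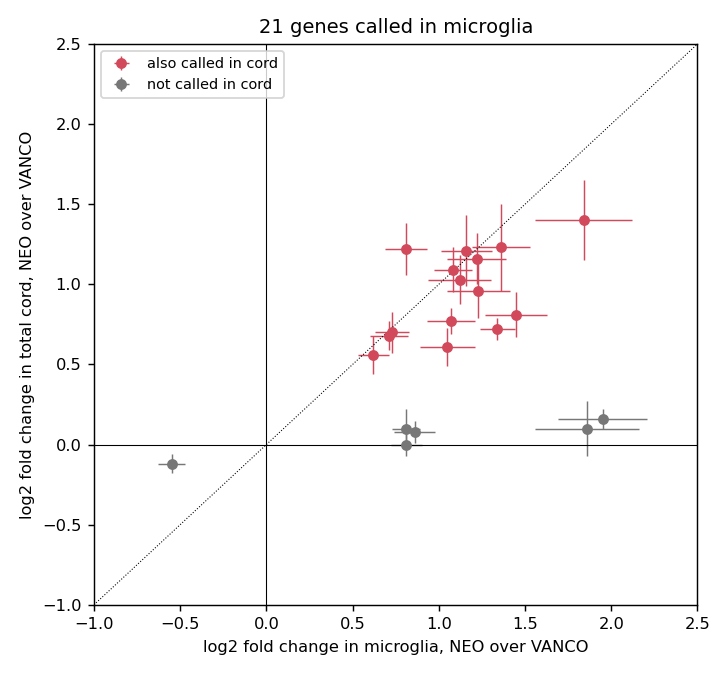
Log2 fold change, NEO over VANCO, in microglia and in total cord for the 21 genes called in microglia, with SE bars and a dotted line where both are equal. The 15 genes also called in cord (red) lie at 0.56 to 1.40 on the cord axis, the other 5 raised genes (grey) at 0.00 to 0.16 and the lowered gene (grey) at -0.12.

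Whether the contrast differed between microglia and cord was tested in a paired model of all 21 libraries. edgeR called 17 of 15546 genes (0.109%): in 15 (0.0965%) the microglia fold change was the higher, in 2 (0.0129%) the lower. Cord-enriched genes made up 12 of the 17, against 1646 of all 15546 genes tested. Of the 17, 9 were too low in microglia to enter the microglia model. Among the 20 raised genes 2 were called, both from the 5 not called in cord, and 0 of the 15 called in both tissues were. The median difference of the 20 genes was 0.28 on the log2 scale (range -0.43 to 1.73), against 0.00 for all genes. Without the pairing edgeR called 0 genes (350 at an unadjusted p under 0.05), and paired limma-voom called 0 (721, lowest adjusted p 0.0570). The count of 17 also depended on single libraries. It was 281, 4, 228 and 249 without microglia NEO replicates 1, 2, 3 and 5, and 127, 369, 81 and 27 without microglia PBS replicates 1, 2, 3 and 5. It was 0, 0 and 126 without microglia VANCO replicates 2, 3 and 5, and 0 without any 1 of the 9 cord libraries (1164 to 1324 genes then had an unadjusted p under 0.05).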

How the data were processed

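The authors deposited raw counts, 1 file per library, whole numbers for 32883 Ensembl gene IDs. The rn6 build, featureCounts 1.5.0-p1 as the counter, STAR 2.5.2a as the aligner and bcl2fastq 2.20.0.422 are named in the submitters' processing notes. Not given in the sources used here are the annotation release, the strand setting and the handling of multimapping reads. Genes that overlap, run antisense or have near-identical copies may therefore hold each other's reads.

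Tests on the counts used edgeR 4.0.16 under R 4.3.3 (filterByExpr by group, TMM factors, robust quasi-likelihood F test, Benjamini-Hochberg adjustment over all genes tested), with treatment and replicate number as terms. The 12 microglia libraries formed 1 model, the 9 cord libraries another, and all 21 were joined for the test between tissues. DESeq2 1.42.0 and limma 3.58.1 (voom) were alternatives. CPM are TMM-scaled, and log2 differences of pairs used a prior count of 2. SE are the log2 fold change over the square root of F. Genes were named by ID: the 2 raised genes of lowest p, the lowered gene and the next lower gene by p. That choice was made after their values were seen.

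Pairing by replicate number was set with the comparison, and a check showed that libraries of the same number deviate together. Deviations of log2 CPM from group means had r from 0.24 to 0.79 between NEO and VANCO libraries of the same number (4 pairs), and from -0.55 to 0.16 between the 12 others, which such deviations push below 0. All 4 NEO and all 4 VANCO libraries correlated best with their own number. The labels do not say what the number stands for. The common biological coefficient of variation was 13.7% with the number in the model and 33.3% without. In cord these values were 5.88 and 12.1%; the check of the cord libraries was made after their calls were known. In the model of all 21 libraries the number was a term within each tissue, and no library of cord was paired with one of microglia.

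Library pairs within NEO or VANCO microglia differed by more than sampling noise (chi-square per degree of freedom 34.2 to 221), and all were kept. The scripts were tested on simulated data. The comparison, the gene lists and the tests were chosen with earlier results of these data known; the lists of pathway and marker genes and the promoter search needed gene names and were not run. Alternatives are in the closing section.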

Additional observations from a re-analysis of the deposited data

Results flagged for a closer look

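Total counts, cord-enriched shares and the 4 printed genes were searched, treatment by treatment, for microglia libraries standing far off. This was so in 4 of 18 such sets, which reuse the same libraries, and chance gives about 1 in 20. NEO replicate 2 had 2.57% of its counts in cord-enriched genes, and NEO replicates 1, 3 and 5 had 0.0367 to 0.0986%. PBS replicate 2 had 0.306% there, and PBS replicates 1, 3 and 5 had 0.0850 to 0.112%. The counts of VANCO replicate 3 summed to 20936827, those of VANCO replicates 1, 2 and 5 to between 14706297 and 15319914. NEO replicate 2 also had the outlying level of ENSRNOG00000017869, 465 CPM, where NEO replicates 1, 3 and 5 had 596 to 623 CPM. Microglia and cord differed in the NEO to VANCO contrast in 17 genes. Of these, 12 were cord-enriched, against 1646 of all 15546 genes tested. The count of 17 was 4 without microglia NEO replicate 2. The part of that library's cord-enriched counts in these calls was not tested.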

How the results depend on the processing

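The count of 21 genes in microglia was 0 with no replicate block, 0 in the paired model of only the NEO and VANCO libraries, 84 in DESeq2 and 37 with no filter on low counts. RLE and upper quartile factors, limma-voom and a filter of 1 CPM gave 21, 22, 30 and 22. Leaving out number 1, 2, 3 or 5 altogether gave 4, 59, 0 and 3, and without 1 library it ran from 1 to 75. Alternatives chosen after the data were seen gave 64 with the cord-enriched share as a covariate, 32 without genes 8-fold higher in cord, and 0 with NEO replicate 2 left out and no block (223 at an unadjusted p under 0.05). The share of higher calls was lower with DESeq2 (59 higher, 25 lower), with the covariate (46 and 18) and without number 2 (44 and 15) than in the 20 and 1 above. In total cord the count of 64 was 0 with no replicate block, 41 in DESeq2, 173 with no filter, 42 and 129 without number 1 or 2, and 36 to 71 without 1 library. For the difference between tissues the count of 17 was 0 with no replicate block (350 at an unadjusted p under 0.05), 0 in limma-voom (721), 180 in DESeq2, 67 and 66 with RLE and upper quartile factors, 51 with no filter, 46 with the filter of 1 CPM, 2, 1, 0 and 201 without number 1, 2, 3 or 5, and 0 to 369 without 1 library. The cause of these changes was not tested. No printed gene changed direction under any alternative, and the median cord log2 fold change of the 20 raised genes, with the cord settings varied, stayed between 0.71 and 0.82. A covariate from marker genes was planned and not run, since it needed gene names. Intervals were wider for genes below 10 CPM than for the others; the part of depth in this was not tested.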

Other observations

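Several called genes stood near each other in the row order of the deposited files, a pattern noticed after the calls were known. Of the 20 raised genes 3 were in rows 24086, 24092 and 24095 of 32883, a pair was in rows 28381 and 28384, and another pair in rows 32336 and 32338. Row 24094 held a gene that did not pass the threshold and is not counted among them (log2 fold change 0.99, SE 0.16, edgeR adjusted p 0.0574, higher in 4 of 4 pairs). The files give no coordinates and do not state what the row order follows, and no test of this nearness was made.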
